A study of Rattus norvegicus with 6 samples.

Results

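Gonadal stroma and mesenchyme genes are described here in whole neonatal rat ovaries: the transcription factors and cofactor Tcf21, Zfpm2, Nr2f1 and Nr2f2, the platelet-derived growth factor (PDGF) receptors Pdgfra and Pdgfrb, the Hedgehog pathway genes Gli1 and Ptch1, and the matrix proteoglycans Dcn and Lum. The members were picked by gene symbol from a list of cell type genes and selected on their measured difference between LPS-treated and saline-treated ovaries, so that difference is given below as a description, with no test. All 10 of 10 members had a probe, 1 probe each, among the 15154 gene symbols that could be named on the array and the 30367 probes in all.

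Wistar rats were injected intraperitoneally with lipopolysaccharide (LPS, a bacterial cell wall component from Salmonella) at 0.05 mg/kg, or with an equal volume of saline, on days 3 and 5 after birth (postnatal days, PNDs), and female pups gave whole ovaries on PND 7. Ovarian RNA was hybridised to 6 single-colour Agilent arrays, 3 of LPS-treated and 3 of saline-treated animals, named here LPS 1 to 3 and saline 1 to 3 after the replicate numbers in the labels. Per the methods, whole litters were given 1 treatment, so litter and treatment cannot be told apart. The RNA of each group came from 5 animals of 2 litters, which animals went on which array is not stated, and so the 3 arrays of a group include animals that share a litter. The p-values given for other genes therefore measure only the spread between these arrays, and their number sets how precise each value can be.

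The stroma of the ovary arises from gonadal mesenchyme and from cells that migrate in from the mesonephros, and it supplies the fibroblasts, theca cells and pericytes that surround the growing follicles. Hedgehog ligands secreted by granulosa cells bind Ptch1 on stromal cells, which frees Smo to activate the GLI transcription factors, and Gli1 and Ptch1 are themselves transcribed in response. PDGF ligands act on Pdgfra and Pdgfrb of mesenchymal cells and pericytes, and Dcn and Lum are small leucine-rich proteoglycans that bind collagen fibrils outside the cell. In whole ovaries, fewer cells of a type and less RNA per cell cannot be told apart.

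Promoters are shown for the Hedgehog receptor and for the transcription factor with the largest difference measured on both sides, since both belong to regulatory circuits with known binding letters. Each run is the 250 bases before the gene's annotated start in RefSeq (GRCr8), on the plus strand, 5′ to 3′, at chr17:1555321-1555570 for Ptch1 and chr1:24520249-24520498 for Tcf21. Capitals mark the GLI letters GACCACCCA, read here as TGGGTGGTC because they lie on the other strand, in Ptch1, and the GATA letters AGATAA in Tcf21.
Ptch1: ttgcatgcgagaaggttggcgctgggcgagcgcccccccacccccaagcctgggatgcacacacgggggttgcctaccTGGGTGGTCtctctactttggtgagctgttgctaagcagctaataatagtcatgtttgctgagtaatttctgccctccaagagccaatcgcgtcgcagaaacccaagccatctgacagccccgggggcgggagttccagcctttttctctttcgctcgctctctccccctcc
Tcf21: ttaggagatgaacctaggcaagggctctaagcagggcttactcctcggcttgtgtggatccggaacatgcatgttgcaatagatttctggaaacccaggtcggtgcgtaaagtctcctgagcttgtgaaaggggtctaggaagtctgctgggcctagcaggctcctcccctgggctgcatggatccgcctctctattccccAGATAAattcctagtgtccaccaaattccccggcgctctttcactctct

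The GLI letters lay 172 to 164 bases before the start of Ptch1. Over the same 250 bases and both strands they occurred in 113 of 33469 promoters (0.338%) and in 1 of the 5 members whose promoter was at hand (Ptch1, Tcf21, Nr2f1, Pdgfra and Lum). AGATAA, the letters bound by GATA factors, for which Zfpm2 is a cofactor, occurred in 10.3% of promoters and among the 5 members in Tcf21 alone, 49 to 44 bases before the start. The E-box CAGCTG, of the kind bound by bHLH factors such as Tcf21, and the nuclear receptor core motif AGGTCA, of the kind bound by Nr2f1 and Nr2f2, were in 12.0% and 14.1% of promoters and in none of the 5 windows. No window held more than 1 of the 4 motifs, and a match is a description of the letters only.

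Across the 10 members, 9 had a higher mean in LPS-treated ovaries and 1, Nr2f2, a lower mean. Values are log2 processed signals (the scanner software's background-subtracted, one-colour intensity) minus the 75th percentile of their array, and a difference is the LPS mean minus the saline mean on that scale, with its standard error (SE). The median difference over the members was 0.25, against -0.04 over all probes and 0.02 over the 17613 probes well above background on every array, of which 53.6% were positive. A difference exceeded 2 SE for 2 members, Tcf21 and Zfpm2, and was under 1 SE for 6. The criterion applied to other genes below, 2-fold with an unadjusted p under 0.05, was met by 0.613% of all probes upward and 1.08% downward, and by 0.0625% upward among the probes well above background on every array. It counts the same 2 members, but the selection fixes that count, which is no test of them, and that of Zfpm2 rests on saline readings not well above background. Their LPS and saline values did not overlap, as was true upward of 5.02% of all probes with unflagged values and of 5.53% of those well above background on every array. Since this difference chose the members, nothing is read from these counts.

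**Figure D1:**
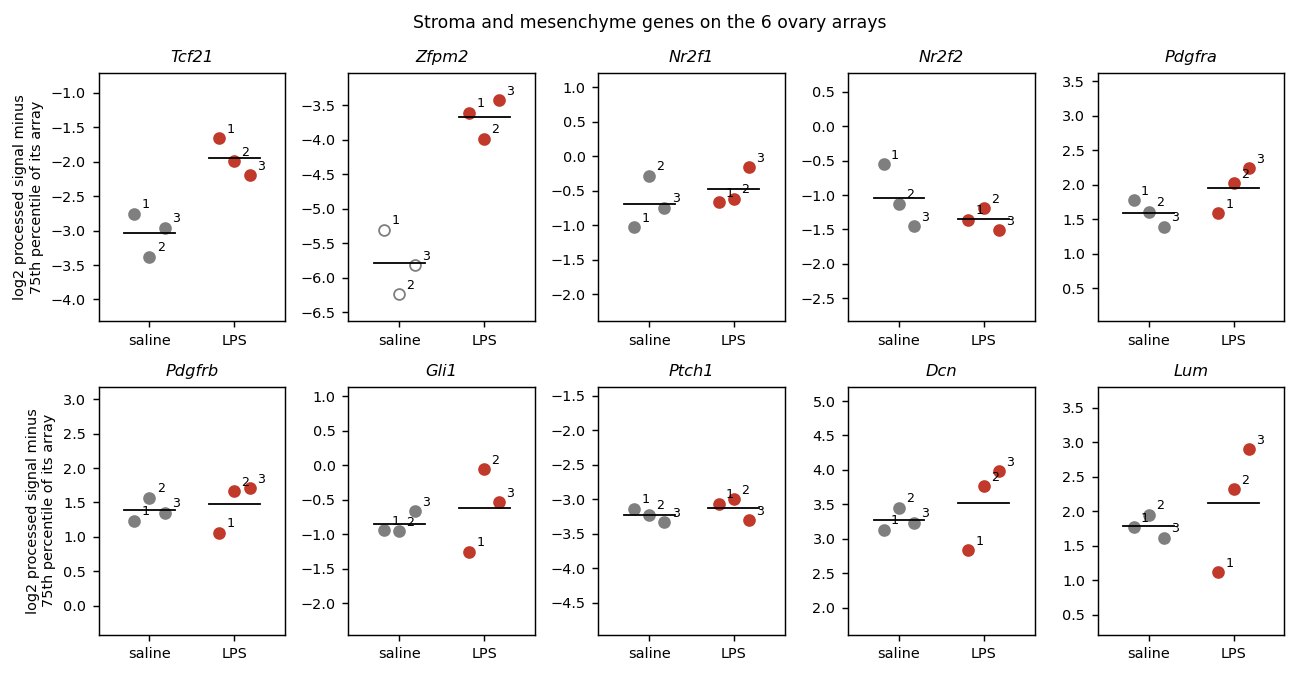
Each panel plots 1 gene, with the log2 processed signal minus the array's 75th percentile on the vertical axis (every panel spans the same range of log2 units), grey points for saline and red points for LPS arrays, numbered by replicate, and bars at the group means. Open points in Zfpm2 are arrays where the probe was not well above background. The LPS and saline points separate in Tcf21 and Zfpm2, and in Dcn, Lum, Gli1 and Pdgfrb LPS 1 lies below every saline point while LPS 2 and 3 lie above.

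Some facts of the 6 libraries touch these values. Granulosa markers (8 of 9) and oocyte markers (9 of 9) were well above background on all arrays, so the tissue carried the genes of an ovary. Saline 2 and 3 also carried adrenal transcripts: the summed linear level of 9 adrenal cortex markers was 236 and 304 on them, against 5.88 to 18.1 on the other 4 arrays, and that of 9 adrenal medulla markers was 91.5 and 55.7 against 2.91 to 5.52. LPS 1 and saline 1 carried more surface epithelium and oviduct transcripts, with a sum over 9 markers of 92.6 and 92.3 against 35.2 to 54.8 elsewhere, and LPS 1 had the lowest sums of 9 granulosa markers (22.4 against 39.4 to 83.9) and 9 oocyte markers (17.1 against 20.2 to 47.4). On the slide, LPS 2 and 3 lay in row 1, and LPS 1 lay in row 2 with all 3 saline arrays. The part of these differences in the results below was not tested, but each member's value is given without the arrays concerned or within the slide row where it moves.

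Tcf21 is a basic helix-loop-helix factor of gonadal, renal and adrenal capsular mesenchyme, and it restrains steroidogenic differentiation in the gonad. Its level was -1.66, -2.00 and -2.20 on LPS 1, 2 and 3 and -2.76, -3.38 and -2.96 on saline 1, 2 and 3. Every LPS array lay above every saline array, LPS 1 was the highest of the 6 and saline 2 the lowest. The difference was 1.08 ± 0.24 (SE, n = 3 per group), a 2.11-fold higher mean, and it stayed between 0.91 and 1.22 when each array in turn was left out. It fell under 2-fold without LPS 1 (0.93), without saline 2 (0.91), and without saline 2 and 3 together, the arrays with adrenal transcripts (0.80). With the slide row as a block, which rests the comparison on LPS 1 against the saline arrays, it was 1.37.

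Zfpm2 (also called Fog2) is a cofactor that binds GATA4 and is needed for gonad formation. Its processed signal was 279, 260 and 512 on LPS 1, 2 and 3 and 60.4, 61.0 and 56.8 on saline 1, 2 and 3, before scaling. All 3 LPS arrays but none of the saline arrays read the probe well above background, so only a bound can be given: the LPS level was at least 1.71-fold higher than the lowest signal that counted as well above background on the saline arrays. Leaving out each array in turn, this bound stayed between 1.57-fold and 1.91-fold. On the log2 scale the levels were -3.60, -3.98 and -3.43 with LPS and -5.30, -6.24 and -5.81 with saline, and the groups did not overlap. The 2 spots of the probe on saline 1 read -6.42 and -4.18, the widest gap of any member, and 1 of them was well above background.

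Nr2f1 and Nr2f2 (COUP-TFI and COUP-TFII) are orphan nuclear receptors, and Nr2f2 is a general marker of gonadal interstitial cells. Nr2f1 had levels of -0.67, -0.62 and -0.16 on LPS 1, 2 and 3 and of -1.03, -0.29 and -0.75 on saline 1, 2 and 3. The groups overlapped, and saline 1, the lowest array, rested on a pair of spots that read -1.76 and -0.30. The difference was 0.21 ± 0.26 (SE, n = 3 per group), under its SE. It ranged from 0.04 without saline 1 and 0.05 without LPS 3 to 0.41 without saline 2, and was 0.55 without saline 2 and 3 and 0.02 once the slide row was a block. For Nr2f2 the levels were -1.36, -1.19 and -1.51 with LPS and -0.56, -1.13 and -1.45 with saline. Saline 1 stood above the other 5 arrays, which lay within the range -1.51 to -1.13. The difference was -0.31 ± 0.26 (SE, n = 3 per group), -0.06 without replicate 1 of both groups and -0.80 with saline 1 as the only saline array.

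The PDGF receptors are tyrosine kinases, Pdgfra in stromal progenitors and theca precursors and Pdgfrb chiefly in pericytes. Pdgfra measured 1.59, 2.02 and 2.24 on LPS 1, 2 and 3 and 1.77, 1.61 and 1.39 on saline 1, 2 and 3. LPS 2 and 3 lay above every saline array and LPS 1 lay between saline 2 and saline 3. Its difference of 0.36 ± 0.23 (SE, n = 3 per group) became 0.54 without LPS 1 and 0.63 without replicate 1 of both groups. It was 0.18 without saline 2 and 3 and -0.00 once the slide row was a block. Pdgfrb measured 1.06, 1.67 and 1.70 on LPS 1, 2 and 3 and 1.23, 1.57 and 1.35 on saline 1, 2 and 3. LPS 1 was the lowest of the 6 arrays. Its difference was 0.09 ± 0.23 (SE, n = 3 per group), 0.30 without LPS 1 and -0.33 once the slide row was a block.

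Gli1 is the GLI factor whose transcription most directly follows Hedgehog signalling, and it also marks capsular cells of the adrenal. Levels of Gli1 were -1.26, -0.06 and -0.53 on LPS 1, 2 and 3 and -0.94, -0.95 and -0.67 on saline 1, 2 and 3. LPS 2 was the highest and LPS 1 the lowest array, with the saline arrays between. The difference was 0.24 ± 0.32 (SE, n = 3 per group), 0.56 without LPS 1 and -0.40 once the slide row was a block. Ptch1, the receptor whose promoter carries the GLI letters above, had levels of -3.07, -3.00 and -3.30 with LPS and -3.14, -3.23 and -3.33 with saline. The 6 arrays lay close together and the groups overlapped. The difference for Ptch1 was 0.11 ± 0.17 (SE, n = 3 per group), and its pooled standard deviation (SD) between arrays of a group, 0.13, was the smallest among the members and stood at the 14.9th percentile of the probes well above background on every array. Its paired spots differed about as much as its arrays, with a median spot SD of 0.18. The Gli1 difference between LPS 2 and 3 and LPS 1, 0.96, had no counterpart in Ptch1, where it was -0.08.

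Dcn (decorin) binds collagen and growth factors such as TGF-beta, and Lum (lumican) regulates collagen fibril spacing. Decorin measured 2.84, 3.76 and 3.98 on LPS 1, 2 and 3 and 3.13, 3.45 and 3.23 on saline 1, 2 and 3. Lumican measured 1.12, 2.32 and 2.90 on LPS 1, 2 and 3 and 1.77, 1.95 and 1.62 on saline 1, 2 and 3. For both genes LPS 1 lay below and LPS 2 and 3 lay above all saline arrays. The differences were 0.25 ± 0.32 for Dcn and 0.33 ± 0.44 for Lum (SE, n = 3 per group), each under its SE. They were 0.60 and 0.83 without LPS 1, and -0.43 and -0.66 once the slide row was a block. The spread sat in the LPS group: the SD between its arrays was 0.61 for Dcn and 0.91 for Lum, against 0.16 and 0.17 between saline arrays. Lum's pooled SD of 0.65 stood at the 93.5th percentile of the probes well above background on every array.

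**Figure D2:**
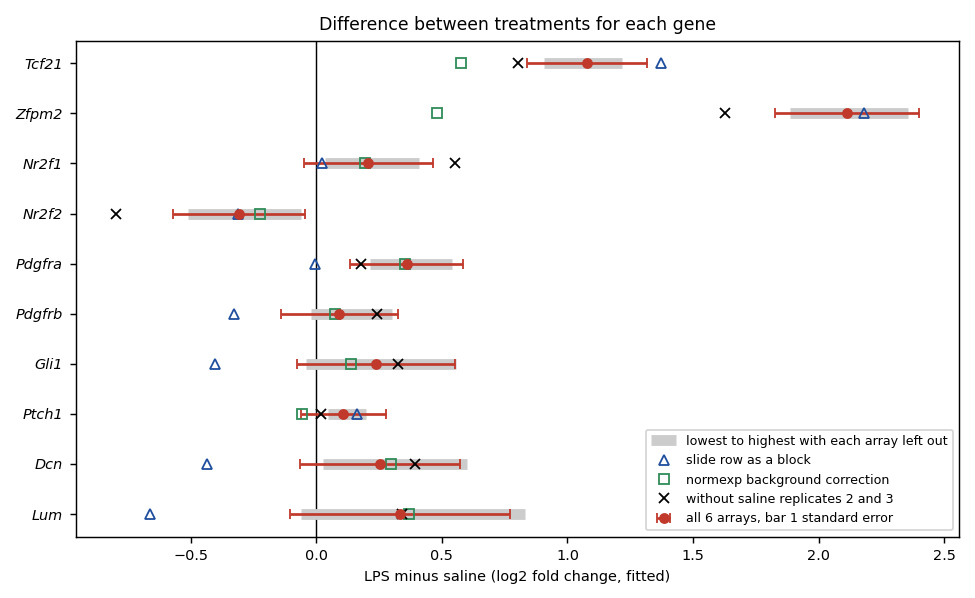
The horizontal axis is the LPS minus saline difference in log2 units for each gene, with red points and 1 SE bars for the 6 arrays, grey bars from the lowest to the highest value when each array is left out, triangles with the slide row as a block, squares after normexp background correction and crosses without saline 2 and 3. Tcf21 and Zfpm2 stay above 0 in every setting shown, and the triangles of Pdgfrb, Gli1, Dcn and Lum lie below 0 at -0.33, -0.40, -0.43 and -0.66. Zfpm2 is drawn at its fitted value, which is no bound.

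The same 4 members, Pdgfrb, Gli1, Dcn and Lum, had LPS 2 and 3 above and LPS 1 below every saline array, a pattern that 5.21% of the probes well above background on every array showed. Wherever LPS 1 lay, LPS 2 and 3 were above every saline array for 7 members, Tcf21 and Zfpm2 included, against 18.7% of those probes. Zfpm2 is outside those probes, since no saline array read it well above background. The members were selected on their LPS difference, so nothing is read from these counts. Within the LPS group, the mean of LPS 2 and 3 exceeded LPS 1 by 1.49 for Lum, 1.03 for Dcn, 0.96 for Gli1, 0.63 for Pdgfrb and 0.54 for Pdgfra, and lay 0.44 under it for Tcf21 (-0.44). On LPS 1 the mean centred level was also low for granulosa markers (-0.80) and oocyte markers (-0.61), and high for surface epithelium and oviduct markers (0.70) and reproductive tract and mesonephros markers (0.75). The mean centred level of the 9 further small leucine-rich proteoglycans, relatives of Dcn and Lum, was highest on LPS 1 (0.43). That mean includes Kera, Epyc and Chad, which no saline array read well above background. The summed linear level of the 9 genes was higher on saline 1 (56.4) and LPS 2 (49.96) than on LPS 1 (45.1). The pericyte and smooth muscle markers (-0.18 on LPS 1) were near their level on saline 1 (-0.16) and above that on saline 3 (-0.49). LPS 1 also differed from LPS 2 and 3 in slide row, as given above. The part of these in the members' values was not tested.

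**Figure D3:**
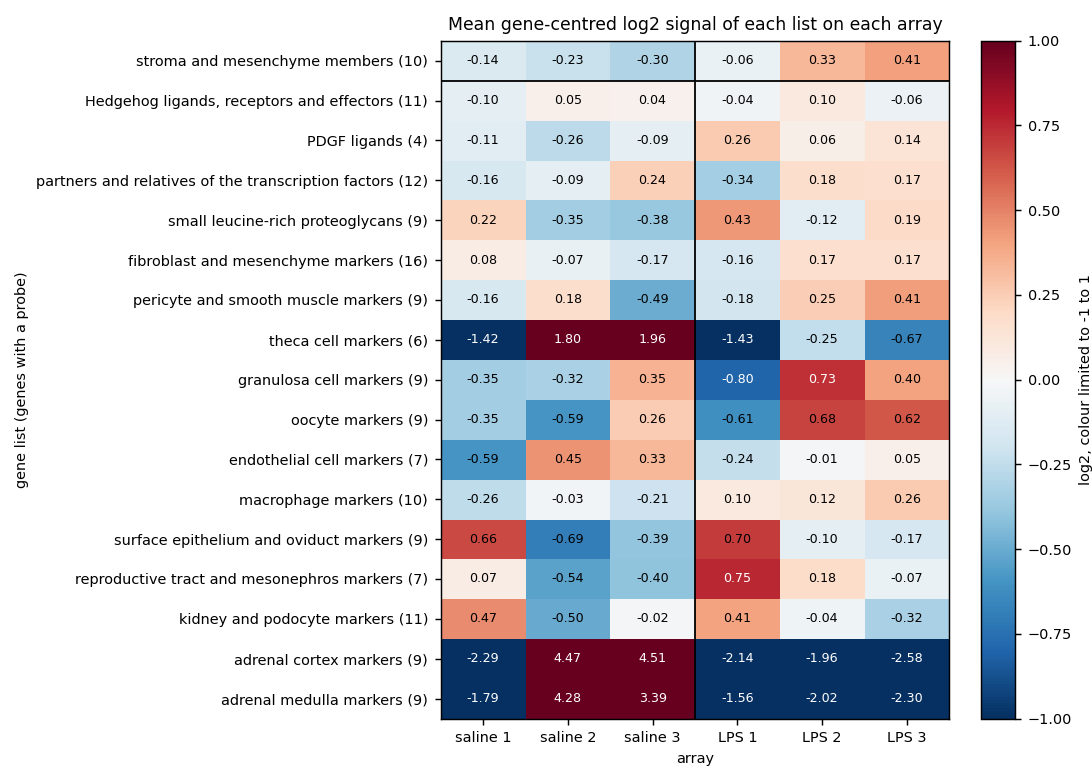
Rows are the 10 members and 16 gene lists (number of genes with a probe in parentheses), columns the 6 arrays, and each cell prints the mean over the genes of the log2 value minus that gene's mean over the arrays, with colour limited to -1 to 1. The members run from -0.30 on saline 3 to 0.41 on LPS 3, and the adrenal lists stand out at 3.39 to 4.51 on saline 2 and 3.

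Repeat spots of a probe measure the reading error within an array. The probes of Dcn and Pdgfra were each printed 10 times per array. The SD over the 10 spots had a median over the arrays of 0.03 for Dcn and 0.05 for Pdgfra, against pooled SDs between arrays of 0.44 and 0.27. On LPS 1 the 10 Dcn spots lay within 2.77 to 2.90 and on saline 1, its nearest neighbour, within 3.03 to 3.24, with no overlap. The other members had 2 spots each, with a median spot SD of 0.03 to 0.06 except in Zfpm2 (0.26) and Ptch1 (0.18).

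**Figure D4:**
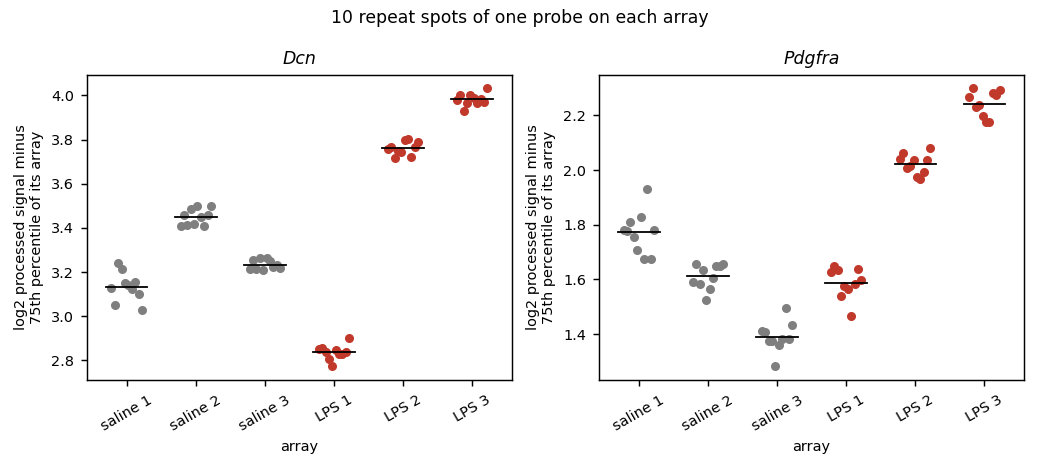
Each point is 1 of the 10 repeat spots of the Dcn or Pdgfra probe on an array, in log2 processed signal minus the array's 75th percentile, red for LPS and grey for saline, with bars at the array means. The spots of an array cluster within a median SD of 0.03 (Dcn) and 0.05 (Pdgfra), while the arrays of the LPS group spread over SDs of 0.61 and 0.33.

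The members' profiles over the 6 arrays were compared by the root mean square (RMS) difference of gene-centred log2 values, over 9694 genes well above background on all arrays, as a description. The 5 genes closest to Tcf21 were Pdia5 (0.15), a protein disulfide isomerase, Hoxd10 (0.16), a homeobox factor of the posterior body axis, Nrgn (0.19), which encodes neurogranin, Pla2g2a (0.21), a secreted phospholipase, and Tmem30b (0.22). The median distance of a gene to Tcf21 was 0.62, and no member was among the 5. Among the members, the nearest pairs were Pdgfrb and Dcn (0.17) and Dcn and Lum (0.20). Pdgfrb was the 77th closest of the 9694 genes to Dcn, while Dcn was only the 999th closest to Pdgfrb. Dcn was the 5th closest of the 9694 genes to Lum, while Lum was the 203rd closest to Dcn. Dcn and Lum are neighbours on chromosome 7 in RefSeq, and Kera, a further small leucine-rich proteoglycan, follows Lum.

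Hedgehog genes outside the members were read from 11 of 15 listed genes with a probe, of which 6 were well above background on all arrays. Their median difference was 0.20, and 1 gene passed 2-fold with an unadjusted p, Shh, which was lower with LPS. Shh, a Hedgehog ligand that the adrenal cortex also makes, had levels of -3.76, -4.57 and -4.99 on LPS 1, 2 and 3 and -4.02, -1.93 and -3.02 on saline 1, 2 and 3. The 2 highest arrays were saline 2 and 3, those with adrenal transcripts, and the groups overlapped. The difference was -1.45 ± 0.56 (SE, n = 3 per group), with an adjusted p of 0.29 in the limma fit, so no change was called after adjustment over all probes, and it was -0.42 without saline 2 and 3. With the replicate number as a block Shh no longer passed the unadjusted threshold.

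The ovarian ligands Dhh and Ihh, which granulosa cells make, differed by -0.01 ± 0.39 and 0.62 ± 0.63 (SE). Ihh spread widely, from -3.55 on LPS 1 to -1.19 on LPS 2. Without LPS 1 its difference was 1.35 and it passed 2-fold with an unadjusted p, and that of Dhh was 0.41, while with the slide row as a block they were -0.83 and -0.84. The transducer Smo differed by 0.48 ± 0.25 and the activator Gli2 by 0.44 ± 0.21 (SE), both with adjusted p-values above the threshold in the limma fit, at 0.41 and 0.38. Gli2 differed by 0.09 without saline 2 and 3, and Smo by 0.15 with the slide row as a block. No array read Gli3 or Cdon well above background, and Hhip had no probe that could be named. Of the ligands of the PDGF receptors, Pdgfa, Pdgfb and Pdgfc differed by 0.15 ± 0.19, -0.01 ± 0.18 and 0.27 ± 0.23 (SE), and Pdgfd was well above background nowhere. None of these 4 ligands passed 2-fold.

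Lists of related genes gave no gene that passed 2-fold with an unadjusted p in either direction. Of 12 partners and relatives of the 4 transcription regulators, 8 differed upward with a median of 0.09, from -1.64 for Nr5a1 to 0.50 for Msc, a bHLH repressor related to Tcf21. Gata4, the partner of Zfpm2, differed by 0.37 ± 0.54 (SE), and the steroidogenic factor Nr5a1, which the adrenal cortex shares with the gonad, by -1.64 ± 1.15 (SE) and by 1.00 without saline 2 and 3; with the replicate number as a block Nr5a1 passed the unadjusted threshold. Of 9 further small leucine-rich proteoglycans, 7 differed upward with a median of 0.31. That count and median include Kera, Chad and Epyc, which no saline array read well above background. Bgn (biglycan) was lowest at -0.02 on its probe with the highest mean, while its second probe gave 0.44 ± 0.29 (SE). The highest fitted value, of Kera (keratocan), was taken against saline readings not well above background and is no measured difference; Ogn (osteoglycin), highest among those well above background on every array, differed by 0.57 ± 0.24 (SE).

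Among 16 fibroblast and mesenchyme markers, 8 differed upward, with a median of -0.01 and a range from -0.27 for Gsn (gelsolin) to 0.64 for Mfap4, a microfibril protein. Of 9 pericyte and smooth muscle markers, 8 differed upward with a median of 0.30, from -0.11 for Mcam to 0.77 for Cnn1 (calponin). The smallest adjusted p over all 30367 probes was 0.27 in the limma fit, and 5018 probes had an unadjusted p under 0.05. No probe passed after adjustment, and the ordinary analysis of variance also gave 0.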

How the data were processed

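Ovarian RNA was hybridised by the authors to Agilent SurePrint G3 rat 8x60K arrays and read with Feature Extraction 10.5.1.1, per the file headers. The deposited processed signals are background-subtracted linear intensity values per spot. The deposited value table of the series also holds processed signal intensities. After the same log2 step and scaling to the 75th percentile, that table gave a Tcf21 difference of 1.08, as the scanner files did. The submitters' processing notes name lumi.

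Control spots and outlier-flagged spots were removed (0.32% to 1.73% of spots per array), spots of a probe were averaged as log2 processed signal minus the array's 75th percentile, and probes needed 2 unflagged arrays per group. Probes were named through RefSeq accessions (17998 of 30367 matched, GRCr8 tables); a listed gene with several probes was read from the one with the highest mean. Groups came from the labels. LPS and saline were compared in R 4.3.3 with limma 3.58.1 (lmFit, eBayes), Benjamini-Hochberg adjusted over all probes, after the fit was tested on simulated data. A probe well above background on no array of a group got a bound: the bright group's mean against, per array of the dim group, the probe's own signal or, where higher, that array's dimmest probe well above background. With 3 arrays against 3, a two-sided exact permutation test cannot go below 0.10, so none was run.

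Members and gene lists were chosen with earlier results of these data known. Named were all members, listed genes past 2-fold and an unadjusted p of 0.05, direct ligands and transducers, the lowest and highest gene of a list, and the 5 genes nearest to Tcf21; an item of the Hedgehog list is not reported here by name. Other genes named (Ogn, Omd, Twist1, Adgre1, Csf1r, Cd68, C1qa and Cdon) were chosen after their values were seen. Replicate numbers come from the labels, which state no pairing. Deviations of same-numbered arrays from their group means correlated across probes at 0.30, 0.22 and 0.25. The highest correlation with another number was -0.16, 0.16 and 0.07. The numbers were used as a block in an alternative, and why same-numbered arrays correlated was not tested. Other alternatives changed background correction (normexp with an offset of 50), scaling, the filter on dim probes, flagged spots and the test. They also changed the slide row and the arrays left out. Leaving out replicate 1 of both groups was chosen after seeing the data.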

Additional observations from a re-analysis of the deposited data

How the results depend on the processing

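Tcf21 and Zfpm2 were positive in all 20 alternatives. The count of members at 2-fold with an unadjusted p, which their selection fixes and which is given as a description, was 2 with all arrays, 0 after normexp background correction (differences of 0.58 and 0.48, the cause was not tested), 1 (Zfpm2) without saline replicates 2 and 3, and 1 to 2 with each array left out, where Tcf21 fell under 2-fold without LPS 1 or saline 2. The median difference of the members, 0.25, was 0.12 (without LPS 3) to 0.55 (without LPS 1) with each array left out, 0.52 without replicate 1 of both groups, 0.62 with no scaling between arrays, which moved the median of all probes to 0.34, and -0.16 once the slide row was a block, where 6 members were negative. Without scaling, Nr2f2 was 0.07, and after normexp Ptch1 was -0.06. The slide-row fit compares LPS 1 alone with the saline arrays.

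Among the 61 listed stroma genes, 1 (Shh) passed with all arrays. Of the genes named next, Pdgfd and Cdon were well above background on no array, and Kera and Chad on no saline array. Their fitted values are no measured differences. The count was 0 after normexp and in the ordinary analysis of variance, 5 without scaling (Pdgfd, Kera, Chad, Mfap4 and Cnn1), 2 with the slide row as a block (Cdon and Pdgfd), 4 without replicate 1 of both groups (Ihh, Shh, Nr5a1 and Cnn1), and 0 to 3 with each array left out: 3 without LPS 1 or without saline 1, 2 without LPS 2, and 0 without LPS 3, saline 2 or saline 3. With the replicate number as a block, 1 listed gene passed, Nr5a1 in place of Shh, and the count of members stayed 2. The difference of Tcf21 stayed 1.08 and the median of the members 0.25. Over all probes, 245 passed upward and 383 downward in this limma fit, and its lowest adjusted p was 0.167.

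Over all probes, 186 passed upward and 327 downward with all arrays, against 2 and 280 after normexp, 1003 and 227 without scaling, 118 and 173 after quantile normalization, 100 and 48 in the ordinary analysis of variance, 1489 and 66 in the slide-row fit, 494 and 506 without saline 2 and 3, 323 and 1044 without replicate 1 of both groups, and 129 to 374 upward and 81 to 757 downward with each array left out. The lowest adjusted p in limma, 0.271 with all arrays, was 0.00835 with the slide row as a block, 0.000177 without saline 1 and 0.000395 without replicate 1 of both groups. Signal limits Zfpm2, whose saline level is known only as not well above background.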

Other observations

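Posterior Hox genes, which pattern the reproductive tract and the mesonephros, included a close neighbour of Tcf21 over the arrays. Hoxd10 had levels of -1.56, -2.28 and -2.34 on LPS 1, 2 and 3 and -2.54, -3.45 and -3.06 on saline 1, 2 and 3. The groups did not overlap, as was true upward of 5.53% of the probes well above background on every array. The difference was 0.96 ± 0.32 (SE, n = 3 per group, adjusted p of 0.27 in the limma fit), and 0.48 without saline 2 and 3. All LPS arrays and none of the saline arrays read Hoxa11 well above background; its level on LPS 1 was -2.06 against -4.29 and -4.61 on LPS 2 and 3. The bound, at least 1.73-fold higher, rested on LPS 1: without that array the LPS mean did not exceed the lowest signal that counts as well above background on the saline arrays, and no fold can be given. Like Tcf21, both genes were highest on LPS 1.

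Macrophages lie in the same interstitium as the stromal cells. Of 10 macrophage markers 7 differed upward and 3 downward, with a median of 0.29, and 3 did not overlap upward, as was true of 5.02% of all probes: Mrc1, the mannose receptor, at least 2.08-fold higher with LPS (1.63-fold to 2.52-fold with each array left out) and well above background on no saline array, Adgre1 with a difference of 0.81 ± 0.24 (SE) and Csf1r with a difference of 0.52 ± 0.15 (SE), each with an adjusted p of 0.27 in the limma fit. Cd68 and Cd163 differed by -0.16 each and C1qa by -0.07.

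Of the other small leucine-rich proteoglycans, Omd (osteomodulin) was higher on every LPS array than on every saline array, with a difference of 0.34 ± 0.18 (SE). So, among the fibroblast markers, was the mesenchymal factor Twist1, with 0.46 ± 0.20 (SE). Each was the only such gene of its list, of 9 and 16 genes. Such separation was seen in 5.53% of the probes well above background on every array. The fibroblast markers had a median difference of -0.01. Without saline 2 and 3, Omd differed by 0.11 and Twist1 by 0.33. Both had adjusted p-values above the threshold in the limma fit, at 0.42 and 0.32.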
